A study of Homo sapiens with 2 samples.

Results

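The alpha, beta and gamma tubulin genes examined here were TUBA1A, TUBA1B, TUBA1C and TUBA4A (alpha), TUBB, TUBB1, TUBB2A, TUBB4B and TUBB6 (beta) and TUBG1 (gamma). These 10 genes were taken by symbol from the 13924 genes with a deposited FPKM value (a fragment count divided by transcript length and library size). The count table held 61806 genes, and all 10 members had at least 10 counts in a library. They were measured in HEL cells, a human erythroleukemia line labelled as wild type, after 24 h with L1 at 1 µM, a derivative of 3,3′-diindolylmethane, or with 0.5% DMSO as the vehicle. mRNA captured on beads was sequenced in 1 library per condition, with 32556872 counts for DMSO and 27135647 for L1. No spread between cultures could therefore be estimated, no test was run, and every interval below covers counting error only. The libraries held the erythroid markers GATA1, KLF1, HBG1, HBG2, TFRC and EPOR and the megakaryocytic markers ITGA2B, GP9, GP1BB and VWF above 10 counts in a library, while PF4 had 0 counts. Some of these markers differed between the libraries. The log2 ratio (L1 over DMSO) was 1.78 for HBG1, a fetal globin gene, -1.25 for TFRC, the transferrin receptor, and -1.08 for GP1BB, a platelet receptor subunit, and their part in the tubulin values was not tested. None of the markers of T cells, B cells, epithelium, fibroblasts or liver that were looked up reached 10 counts.

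Alpha and beta tubulin form the dimer from which microtubules are built, and gamma tubulin, within a ring complex, starts the growth of new microtubules. Humans have several genes for alpha and for beta tubulin, called isotypes, whose proteins differ mostly in the tail at their end, where enzymes add and remove chemical groups. The amount of tubulin mRNA is also controlled by tubulin itself. When free dimers accumulate, the protein TTC5 recognises the first residues of a growing tubulin chain on the ribosome, and the mRNA is degraded through the CCR4-NOT deadenylase. In megakaryocytes and platelets, TUBB1 is the specialised beta tubulin.

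The starts of the reading frames are shown first because they carry the stretch that this control reads. They were read from the principal GENCODE release 29 transcript of each gene (GRCh38), 5′ to 3′, with the first 4 codons in capitals. All of it lies in coding exons.

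TUBA1B: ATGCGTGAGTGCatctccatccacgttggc
TUBA4A: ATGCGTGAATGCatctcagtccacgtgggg
TUBB: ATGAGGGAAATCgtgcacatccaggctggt
TUBB2A: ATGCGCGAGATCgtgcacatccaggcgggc
TUBB6: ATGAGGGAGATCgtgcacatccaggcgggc
TUBB1: ATGCGTGAAATTgtccatattcagattggc
TUBG1: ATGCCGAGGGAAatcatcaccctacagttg

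The 5 beta genes used 4 different spellings of these codons, and the 4 alpha genes used 2. Translated with the standard genetic code, the 5 beta starts gave 1 peptide and the 4 alpha starts gave another. TUBG1 began with different codons.

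The ends of the beta reading frames are shown because the isotypes differ there. These are the last 75 coding bases before the stop codon, and capitals mark bases that differ from, or have no partner in, TUBB.

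TUBB: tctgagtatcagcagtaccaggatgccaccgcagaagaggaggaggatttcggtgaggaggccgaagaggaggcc
TUBB4B: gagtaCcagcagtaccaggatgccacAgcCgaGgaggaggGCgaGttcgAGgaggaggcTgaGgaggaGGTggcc
TUBB2A: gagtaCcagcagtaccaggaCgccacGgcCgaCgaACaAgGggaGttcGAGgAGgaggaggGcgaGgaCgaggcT
TUBB6: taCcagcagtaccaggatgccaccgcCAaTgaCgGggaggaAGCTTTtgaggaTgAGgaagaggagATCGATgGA
TUBB1: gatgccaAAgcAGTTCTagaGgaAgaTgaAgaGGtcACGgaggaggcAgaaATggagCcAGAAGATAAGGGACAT

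Of the 75 bases, 14 were marked in TUBB4B, 19 in TUBB2A, 23 in TUBB6 and 37 in TUBB1.

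Over the whole reading frame, TUBA1A and TUBA1B shared 97.2% of their bases, and TUBA1B and TUBA1C 96.8%. The beta genes were less alike, from 74.0% between TUBB1 and TUBB4B to 87.3% between TUBB2A and TUBB4B. Between an alpha and a beta gene the identity was lower, for example 53.9% for TUBA1B and TUBB, and TUBG1 shared 51.4% with TUBA1B and 53.7% with TUBB. These values bear on the counts, since reads from near-identical stretches may be placed on either gene.

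**Figure D1:**
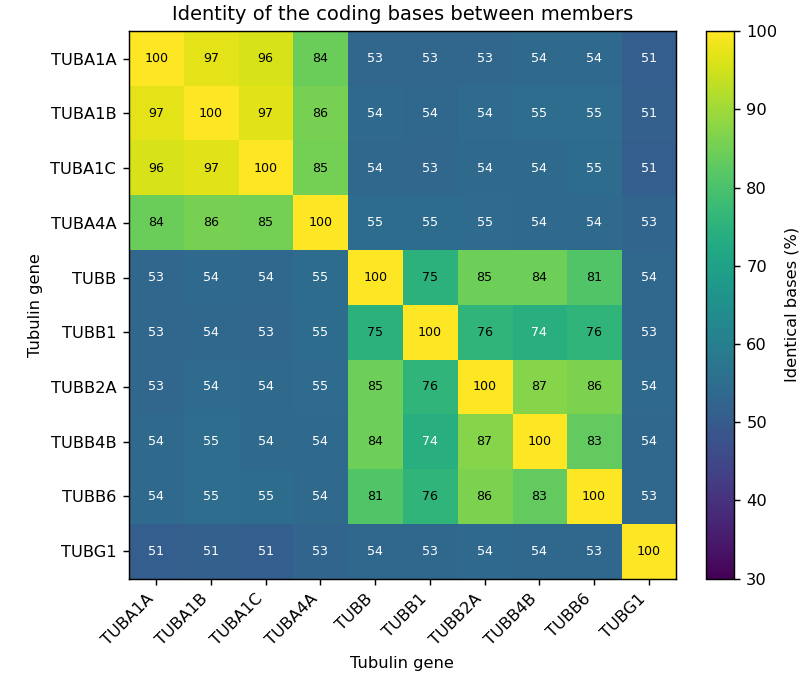
Percentage of identical coding bases between each pair of the 10 tubulin genes, in an alignment of whole reading frames. The 3 genes TUBA1A, TUBA1B and TUBA1C are the closest group, at 95.9% or more, and every beta pair lies between 74.0% and 87.3%.

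The deposited FPKM values, which are per length and so allow genes to be compared, showed that TUBB and TUBA1B made up most of the tubulin mRNA of these genes in both libraries. TUBB, the most widely used beta isotype (ENSG00000196230, chromosome 6 from 30720201 to 30725426, plus strand, GRCh38), had an FPKM of 645 under DMSO and 441 under L1. It ranked 39 among the 13924 genes with an FPKM in DMSO and 62 in L1. TUBA1B, the main alpha isotype (ENSG00000123416, chromosome 12 from 49127782 to 49131397, minus strand), had 504 in DMSO and 468 in L1. By FPKM it stood above TUBB in the L1 library and below it in DMSO. On counts, not divided by length, TUBB stood above TUBA1B in both libraries, with 49206 against 45910 in L1. The change of order therefore rests on the lengths behind the FPKM.

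TUBA1C had an FPKM of 143 in DMSO and 124 in L1, and TUBA4A had 112 and 119. TUBB4B, a broadly used beta isotype that is also a part of cilia, had 99.6 in DMSO and 145 in L1. In the order of FPKM TUBB4B therefore moved from below TUBA1C and TUBA4A in DMSO to above both in L1. On counts it stayed below both, with 8111 in L1 against 15122 for TUBA1C and 12093 for TUBA4A. TUBA1A had 29.4 and 34.1, and TUBG1 had 18.1 and 17.5. The lowest levels were those of TUBB6 (7.10 in DMSO, 16.1 in L1), TUBB2A (4.20 and 7.71) and TUBB1 (3.03 and 3.95). Whether neighbours in this order differ beyond the spread between cultures could not be measured. Beside TUBB1, the megakaryocytic markers had FPKM values from 0.29 (VWF) to 222 (ITGA2B) in DMSO, and 3 of the 4 with at least 10 counts had a log2 ratio below 0 (ITGA2B 0.026, GP9 -0.37, VWF -0.64), as given above for GP1BB.

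**Figure D2:**
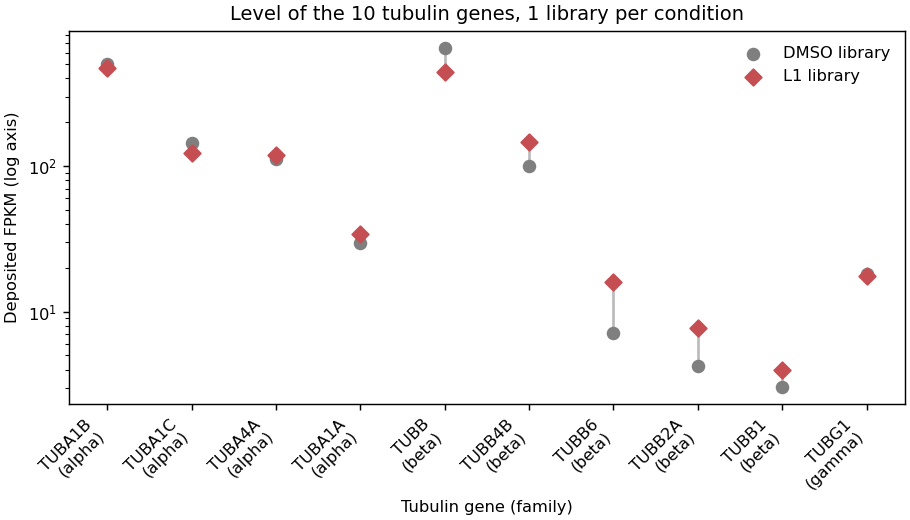
Deposited FPKM on a log axis for the 10 tubulin genes, with a grey circle for the DMSO library and a red diamond for the L1 library, grouped by family and ordered by the DMSO level. TUBB lies lower in L1 (645 against 441), while TUBB4B, TUBB6, TUBB2A and TUBB1 lie higher.

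The comparison of L1 with DMSO was made on counts scaled by TMM, a method that sets the libraries to a common size from the genes as a whole, and is given as a log2 ratio (L1 over DMSO) with its exact 95% interval. Of the 10 genes, 6 had a ratio above 0 and 4 below 0. With a prior count of 2 added they ran from -0.55 to 1.18, with a median of 0.15. The median over the 18123 genes with at least 10 counts in a library was -0.0040. Over the 12365 genes with at least 100 counts it was -0.028. TUBB6 alone was past 2-fold upward, that is 1 of 10, and 0 of 10 were past 2-fold downward. Among all 18123 genes these shares were 7.12% upward and 4.83% downward. All 10 members had over 100 counts, and among the 12365 genes with at least 100 counts in a library the shares were 3.13% and 2.92%. With 10 genes, 1 past 2-fold is too few to be read against these shares. In RNA from whole cultures, less RNA per cell and fewer cells of a kind cannot be told apart.

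Among the beta genes the direction depended on the isotype. TUBB had 83445 counts under DMSO and 49206 under L1, 1.46-fold lower in the L1 library after scaling (log2 ratio -0.55, 95% interval -0.57 to -0.53). Only 1123 of the 12365 genes with at least 100 counts had a lower log2 ratio.

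The other beta members were all higher in L1. TUBB6 (ENSG00000176014, chromosome 18 from 12307669 to 12344320, plus strand), the class V beta isotype, had 890 counts under DMSO and 1736 under L1. It was 2.26-fold higher in L1, with a log2 ratio of 1.18 (95% interval 1.06 to 1.30), and 298 of the 12365 genes had a higher ratio. TUBB2A (ENSG00000137267, chromosome 6 from 3153669 to 3157526, minus strand), a class II beta isotype abundant in brain, had 388 and 615 counts and was 1.84-fold higher (log2 ratio 0.88, 95% interval 0.69 to 1.06). For this gene the interval reaches past 2-fold.

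TUBB4B (ENSG00000188229, chromosome 9 from 137241213 to 137243707, plus strand) had 6451 counts under DMSO and 8111 under L1. Its log2 ratio was 0.54 (95% interval 0.50 to 0.59), a 1.46-fold higher level in L1. TUBB1 (ENSG00000101162, chromosome 20 from 59019254 to 59026654, plus strand) had the fewest counts of the members, 320 under DMSO and 360 under L1, and its log2 ratio of 0.38 had the widest interval of the members, from 0.16 to 0.60.

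The log2 ratios of the alpha members and TUBG1 lay between -0.21 and 0.21. TUBA1B had 57309 counts under DMSO and 45910 under L1 (log2 ratio -0.11, 95% interval -0.12 to -0.089), and TUBA1C had 20285 and 15122 (log2 ratio -0.21, 95% interval -0.24 to -0.18). TUBA4A, with 13150 and 12093 counts, had a log2 ratio of 0.092 (95% interval 0.056 to 0.13). For TUBA1A the counts were 3579 and 3578 and the log2 ratio 0.21 (95% interval 0.15 to 0.28). Counts of TUBG1 were 2487 under DMSO and 2067 under L1, and the interval of its log2 ratio of -0.054 ran from -0.14 to 0.031 and so included 0. Among the 12365 genes the 25th and 75th percentiles were -0.26 and 0.19, with TUBA1A above the 75th and the other 3 alpha members and TUBG1 between them.

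**Figure D3:**
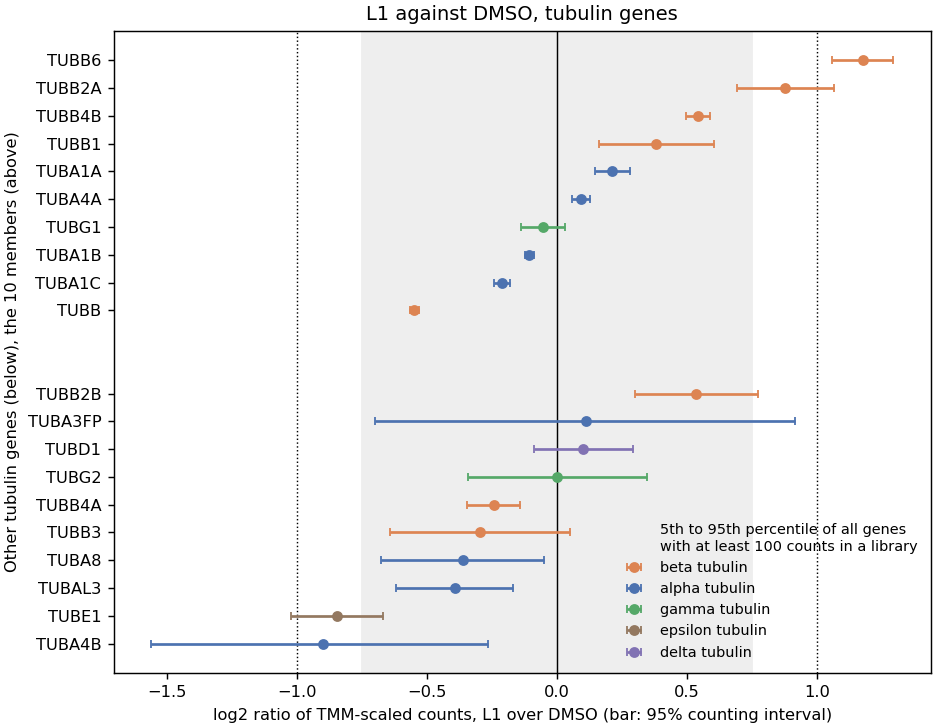
Log2 ratio of TMM-scaled counts, L1 over DMSO, for the 10 members (upper block) and 10 other tubulin genes (lower block), coloured by family, with bars for the 95% counting interval, dotted lines at 2-fold and a grey band from the 5th to the 95th percentile of genes with at least 100 counts in a library (-0.75 to 0.75). TUBB6 and TUBB2A lie to the right of the band, TUBB lies inside it on the left, and the 4 alpha members lie between -0.21 and 0.21. In the lower block TUBE1 and TUBA4B lie to the left of the band. TUBA4B had only 67 and 31 counts, and the 5th percentile of genes with at least 10 counts in a library was -0.98.

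The contrast between beta isotypes does not depend on how the libraries were scaled, because it can be taken within each library. The DMSO library held 93.8 counts of TUBB for each count of TUBB6, and the L1 library held 28.3. The log2 ratio of TUBB6 was higher than that of TUBB by 1.73 (95% Wald interval 1.61 to 1.84). TUBB2A differed from TUBB by 1.43 (1.24 to 1.61), TUBB4B by 1.09 (1.04 to 1.14) and TUBB1 by 0.93 (0.71 to 1.15). None of these 4 intervals included 0.

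The minor beta isotypes also differed among themselves. TUBB6 exceeded TUBB4B by 0.63 (0.51 to 0.76) and TUBB2A by 0.30 (0.082 to 0.52). Among the alpha genes, TUBA1A exceeded TUBA1B by 0.32 (0.25 to 0.39), TUBA4A exceeded it by 0.20 (0.16 to 0.24), and TUBA1C lay below it by 0.10, with an interval from -0.14 to -0.069.

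As a share of the summed FPKM of the 5 beta genes, TUBB made up 85.0% under DMSO and 71.8% under L1, a difference of -13.2 percentage points. The share of TUBB4B was 13.1% in DMSO and 23.7% in L1, TUBB6 had 0.94% and 2.62%, TUBB2A had 0.55% and 1.26%, and TUBB1 had 0.40% and 0.64%. On counts, which are not divided by length, the share of TUBB4B differed by 6.46 percentage points, against 10.5 on FPKM. In FPKM, the 4 minor genes together gained 59.0 while TUBB changed by -204, so the summed beta FPKM was 759 in DMSO and 614 in L1.

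Among the alpha genes the shares moved by less than 2 percentage points. TUBA1B had 63.9% of the alpha sum in DMSO and 62.8% in L1, TUBA1C 18.2% and 16.6%, TUBA4A 14.2% and 16.0%, and TUBA1A 3.73% and 4.58%. The summed alpha FPKM was 789 in DMSO and 746 in L1. The ratio of alpha to beta FPKM was 1.04 in DMSO and 1.21 in L1, and on counts it was 1.03 and 1.28. The summed counts of the alpha genes had a log2 ratio of -0.085 (95% interval -0.099 to -0.071), or -0.12 to -0.036 with other scalings, and those of the beta genes had one of -0.39 (-0.41 to -0.38). Together, the 10 genes took 0.578% of all counts in DMSO and 0.511% in L1.

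**Figure D4:**
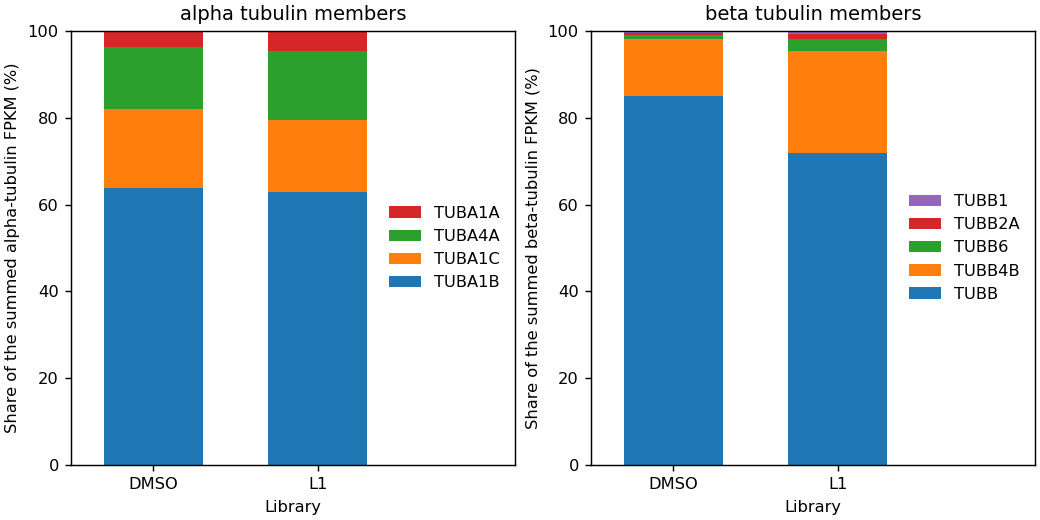
Share of each isotype in the summed FPKM of the 4 alpha genes (left) and the 5 beta genes (right), as stacked bars from 0 to 100% for the DMSO and the L1 library. The TUBB part is 85.0% in DMSO and 71.8% in L1 and the TUBB4B part 13.1% and 23.7%, while the alpha bars look nearly alike.

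Some of these values rest on sequence that genes share. Of the 31-base words in TUBB2A transcripts, 63.5% also occurred in transcripts of another gene, and 57.8% in its near copy TUBB2B. Even of words of 150 bases, the length of 1 sequenced read, 41.4% were shared. TUBB2B had 267 counts under DMSO and 334 under L1, and the sum of both genes had a log2 ratio of 0.75, so the value of TUBB2A is uncertain as that of a gene of its own. By contrast TUBB6 shared 2.88% of its 31-base words and TUBB1 0.52%, and neither shared a word of 150 bases. TUBB shared 25.6% of its 31-base words, mostly with the pseudogene TUBBP1, and 1.80% of its words of 150 bases. TUBBP1 had 298 counts under DMSO and 178 under L1, with a log2 ratio of -0.53, close to that of TUBB, and adding the counts of its pseudogenes left TUBB at -0.55. In TUBA1A, TUBA1B and TUBA1C the shared 31-base words were 29.2%, 31.4% and 23.1%.

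Several members have exons that lie over those of a gene transcribed the other way. The sources used here do not state if reads were counted by strand. On TUBB1, ATP5F1E covers 34.0% of the exon bases and had far more counts than TUBB1, with 5382 for the DMSO library and 4832 for the L1 library (log2 ratio 0.058). AFG3L2 covers 20.3% of the exon bases of TUBB6, with 2329 and 2182 counts (log2 ratio 0.12). The antisense gene AL662797.1, on 16.0% of the exon bases of TUBB, had 2014 and 1490 counts (log2 ratio -0.22). AC011603.2 lies on 36.6% of the exon bases of TUBA1B and had 3428 and 3237 counts (log2 ratio 0.13). TUBA1A and TUBA1C overlap each other on opposite strands over 490 exon bases. Other opposite-strand overlaps were those of STK16 and TUBA4B with TUBA4A, AC125611.3 with TUBA1C, FAM166A with TUBB4B and RETREG3 with TUBG1. TUBA4B, with only 67 and 31 counts, shares 112 exon bases with TUBA4A. The part of these overlaps in the ratios was not tested.

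Outside the 10 members, 14 other tubulin genes were listed, and 10 of them had at least 10 counts in a library. Their median log2 ratio was -0.27, with 4 above 0 and 6 below, and none was 2-fold different. Of the 18123 genes with at least 10 counts in a library, 49.6% were above 0. TUBE1, which encodes epsilon tubulin of the centriole, had 812 counts under DMSO and 390 under L1 (log2 ratio -0.84, 95% interval -1.02 to -0.67). TUBD1, for delta tubulin of the centriole, had 470 and 435 counts (log2 ratio 0.10, 95% interval -0.090 to 0.29). Of the other beta genes, TUBB4A had 1887 and 1375 counts (log2 ratio -0.24, 95% interval -0.34 to -0.14), and TUBB3, the neuronal isotype, had 172 and 121 (log2 ratio -0.29, 95% interval -0.64 to 0.050). TUBB2B, at 0.54, was the only one of the 10 whose whole interval lay above 0. Not every minor beta gene was therefore higher in the L1 library.

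Among the alpha genes outside the members, TUBAL3 had 417 and 274 counts (log2 ratio -0.39), TUBA8 had 213 and 143 (log2 ratio -0.36) and TUBA4B had 67 and 31 (log2 ratio -0.90, 95% interval -1.56 to -0.26). TUBA8 shares exons with PEX26, and the summed counts of both had a log2 ratio of 1.79. TUBA3FP, annotated as a processed transcript and not as protein coding, had 29 and 27 counts (log2 ratio 0.11, 95% interval -0.70 to 0.92). Summed with genes that share its exons on the same strand, it had a log2 ratio of 0.48. TUBG2, the second gamma tubulin gene, had 154 and 133 counts, a log2 ratio of 0.0016 (95% interval -0.34 to 0.35). Its difference from TUBG1 had an interval that included 0 (TUBG1 minus TUBG2 -0.055, 95% Wald interval -0.40 to 0.29).

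The genes that fold tubulin fell into groups whose medians had opposite signs. Newly made tubulin is folded by the cytosolic chaperonin CCT with the help of prefoldin, and cofactors TBCA to TBCE then assemble the dimer. Of 15 chaperonin and prefoldin genes, 12 had a ratio above 0, with a median of 0.18, and 0 were 2-fold different, while 46.4% of the 12365 genes with at least 100 counts were above 0. CCT8 had the highest level, with an FPKM of 342 in DMSO and 371 in L1 (log2 ratio of counts 0.12), and CCT5 had 104 and 115 (0.14). Of 8 cofactor genes 7 had a ratio below 0, and the median was -0.20. The exception was TBCA, which holds beta tubulin on its folding path, with 2629 counts under DMSO and 3318 under L1 (log2 ratio 0.55, 95% interval 0.47 to 0.62). TBCB, TBCC, TBCD and TBCE had log2 ratios of -0.093, -0.27, -0.22 and -0.025, and the intervals of TBCB and TBCE included 0. The medians of both groups lay between the 25th and 75th percentiles of the 12365 genes, -0.26 and 0.19.

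For the control of tubulin mRNA, TTC5 had 847 counts under DMSO and 660 under L1 (log2 ratio -0.15, 95% interval -0.30 to 0.0017). SCAPER, the adaptor between TTC5 and CCR4-NOT, had 226 and 134 counts (log2 ratio -0.54, 95% interval -0.86 to -0.23). Of the 13 genes of this list, 2 were past 2-fold downward and 0 upward, and the median was -0.091. Among the 12365 genes with at least 100 counts in a library, 2.92% were past 2-fold downward and 3.13% upward. With 13 genes, 2 past 2-fold is too few to be read against these shares. CNOT8, a catalytic subunit of the deadenylase, had 3398 counts under DMSO and 1099 under L1 (log2 ratio -1.42), and CNOT9, a non-catalytic subunit, had 5499 and 2264 (log2 ratio -1.07). CNOT1, the scaffold of the complex, had 9693 and 8127 counts (log2 ratio -0.041).

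The gamma-tubulin ring complex, its anchors and the augmin complex, which recruits it to spindle microtubules, gave a list of 22 genes. Their median was -0.22, and 17 were below 0. Among the 18123 genes with at least 10 counts in a library, 49.6% were above 0 and the 25th percentile was -0.28. Of these 18123 genes 4.83% were at least 2-fold lower. TUBGCP2 to TUBGCP6, the ring proteins, had log2 ratios of -0.26, -0.41, -0.22, -0.037 and -0.49, all below that of TUBG1 except TUBGCP5. The augmin subunit HAUS2 was the only 1 of the 22 that was 2-fold different, with 2374 counts under DMSO and 320 under L1 (log2 ratio -2.68, 95% interval -2.85 to -2.51). HAUS6, with the most counts of the list, had 16858 and 13617 (log2 ratio -0.095), and PCNT had 9359 and 8868 (log2 ratio 0.14).

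Of 20 kept genes for enzymes that modify tubulin, 8 were above 0 and 12 below, with a median of -0.11. Among the 18123 genes with at least 10 counts in a library, 49.6% were above 0 and 7.12% were at least 2-fold higher. VASH1 and VASH2 encode vasohibins, which remove the final tyrosine of alpha tubulin. VASH1 had 6427 counts under DMSO and 3541 under L1 (log2 ratio -0.65, 95% interval -0.71 to -0.59), whereas VASH2 had 46 and 146 (log2 ratio 1.88, 95% interval 1.39 to 2.39), the only gene of the list past 2-fold with the prior count. TTLL1 and ATAT1 were named for their place at the threshold. TTLL1 had 21 and 37 counts and a log2 ratio of 1.03 without the prior count and 0.96 with it. ATAT1 had 28 and 48 counts, with log2 ratios of 0.99 and 0.94 in the same order. TTL, the ligase that puts the tyrosine back, had 2552 and 1889 counts (log2 ratio -0.22). TTLL12 had 3039 and 2015 (log2 ratio -0.38).

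Among 29 kept genes for proteins that bind or cut microtubules the median was 0.090, and 2 were at least 2-fold higher in L1. The share was 7.12% among the 18123 genes with at least 10 counts in a library. Among the 12365 genes with at least 100 counts it was 3.13%. With 29 genes, 2 past 2-fold is too few to be read against these shares. SPAST, the severing enzyme spastin, had 537 counts under DMSO and 1796 under L1 (log2 ratio 1.95), and MAP1A, a microtubule-associated protein, had 580 and 1008 (log2 ratio 1.01, 95% interval 0.86 to 1.16). STMN1, which encodes stathmin, a protein that binds free tubulin dimers, had the lowest ratio of the list, with 15812 and 6927 counts (log2 ratio -0.98, 95% interval -1.02 to -0.94). TPX2, a spindle assembly factor, had 12857 and 13362 counts (log2 ratio 0.27).

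The 16 spindle motor genes had a median of 0.11, with 12 above 0 and 0 past 2-fold, among them KIF2C (log2 ratio 0.12) and DYNC1H1 (0.029). Of the 12365 genes with at least 100 counts in a library, 46.4% were above 0 and the 75th percentile was 0.19. For comparison with the other main cytoskeleton, 19 kept genes of actins, actin-binding proteins, VIM and lamins had a median of 0.0019, whose sign depended on the scaling (-0.029 to 0.052), and 0 were past 2-fold. ACTB had an FPKM of 654 in DMSO and 651 in L1, near the DMSO level of TUBB, with a log2 ratio of -0.0072 (95% interval -0.021 to 0.0066). ACTG1 had 380 and 351 (log2 ratio -0.12).

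**Figure D5:**
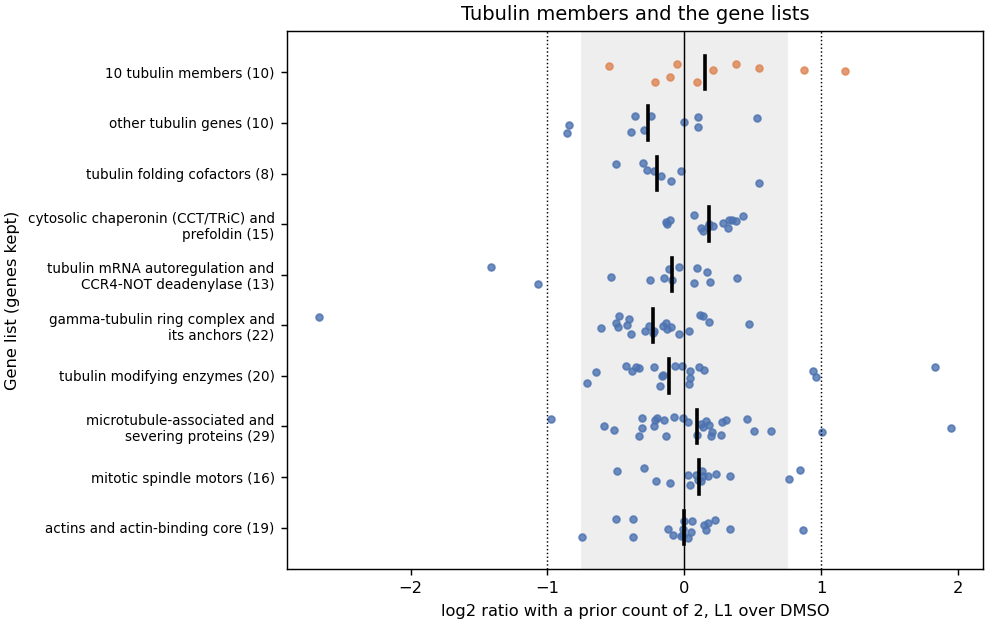
Log2 ratio with a prior count of 2, L1 over DMSO, for each gene of the 10 tubulin members (orange) and of 9 lists (blue), with a black bar at the median of each list, the number of genes in brackets, dotted lines at 2-fold and the same grey band of all genes. List medians run from -0.27 to 0.18, and the genes past 2-fold are TUBB6, CNOT8, CNOT9, HAUS2, VASH2, SPAST and MAP1A.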

How the data were processed

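Gene expression of HEL cells was measured by RNA sequencing in 1 library per condition, L1 or DMSO. Paired reads of 150 bases were aligned with HISAT2 (2.1.0), and the submitters' processing notes also name hg38, fastp and StringTie. The annotation, the counting program and the use of strand are not given in the sources used here. The authors deposited raw counts for 61806 Ensembl genes and FPKM values for 13924 genes, which imply the same library size ratio of 1.16 (DMSO over L1) as TMM. The FPKM tables each held 1 row without a value, which was left out.

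TMM factors were computed with edgeR 4.0.16 and size factors with DESeq2 1.42.0 in R 4.3.3. Ratios, intervals and figures were made in Python 3.11.15 with numpy 2.4.6, pandas 2.3.3, scipy 1.17.1 and matplotlib 3.10.9, and coding sequences were aligned with Biopython 1.88. Counts past 2-fold and list medians used a prior count of 2 and genes with at least 10 counts in a library. Ratios of single genes had no prior count and an exact 95% Clopper-Pearson interval of the split of their counts. Differences between genes had a 95% Wald interval on the log scale. Intervals cover counting error only, and reads are not independent molecules. No p-value was computed. Some sequences and 1 marker are not reported here. The ratio and interval steps were tested on simulated data.

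Positions, exons and transcripts came from GENCODE release 29 (GRCh38), which held 58254 of the 61806 identifiers. Its exon lengths are not those behind the deposited FPKM. Genes named were the members, the other tubulin genes with at least 10 counts, pseudogenes with at least 100 counts, genes sharing exons with a member, and in each list those past 2-fold and the 2 with the highest mean count, with TTC5, SCAPER and TBCA to TBCE. TUBGCP2 to TUBGCP6, TTL, TTLL1 and ATAT1 were named in addition, after their values were seen. The members and the 9 lists, written from general knowledge, were chosen with earlier results of these data known. Alternatives were other scalings, prior counts, filters and thresholds, the FPKM values, and sums over pseudogenes, overlapping genes and near copies, of which the last and the sums for list genes were added after seeing the data.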

Additional observations from a re-analysis of the deposited data

How the results depend on the processing

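No paired analysis was possible because only 1 L1 and 1 DMSO library exist in these files, and for the same reason no library could be left out. For the 10 members, 46 alternative values of the log2 ratio stayed inside the counting interval. The other 12, all from another scaling, lay outside it on the same side of 0. The 46 are no measure of stability, because many of them could hardly move. The deposited FPKM values imply the same library size ratio as TMM, so they differ from the main values only by the added constant. For TUBA1C, TUBB4B and TUBG1 the sum with pseudogenes left the ratio as it was. TUBB ran from -0.58 to -0.50, TUBB4B from 0.51 to 0.59 and TUBB6 from 1.07 to 1.23. The summed alpha ratio was -0.036 with total counts, -0.116 with DESeq2 size factors and -0.047 with upper quartile scaling, and the summed beta ratio was -0.345, -0.426 and -0.356. TUBA8 changed sign, to 1.79, when summed with PEX26, which replaces its counts by those of the pair. TUBG2, whose interval includes 0, ran from -0.030 to 0.051. In counts, not divided by length, the share of TUBB differed by -9.23 percentage points and that of TUBB4B by 6.46, with the same signs. At 1.5-fold, 2 members were higher in L1, since TUBB2A then counts, and under each other setting 1 was.

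Over all genes, those 2-fold higher and lower numbered 199 and 153 with log2(FPKM + 1), 348 and 298 with log2(FPKM + 0.1), 3544 and 1811 with no filter, and 694 and 491 where both libraries had to reach 10 counts. At 1.5-fold they were 2506 and 2065, and with the whole interval past 2-fold 547 and 350. The median of the members stayed between 0.12 and 0.20, and that of the actin list between -0.029 and 0.052, so its sign depends on the scaling. The medians of the other 8 lists kept their sign. Summed with genes that share their exons on 1 strand, VASH1 had -0.64 and STMN1 -0.98. TUBB1, with 320 and 360 counts, is the member that depth limits most.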
